A study of Mus musculus with 7 samples.

Results

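Mouse chromosomes 12 and 14 were examined beyond their first 5 Mb for H3K9me3 peaks in Setdb1 cKO iMEFs with and without Setdb1. Every row of the deposited WT and Setdb1 KO peak lists whose start was at or above position 5000000 (mm9) was taken, which gave 817 WT and 41 KO peaks on chromosome 12 and 999 WT and 122 KO peaks on chromosome 14. These are 1816 of the 23190 WT peaks and 163 of the 3775 KO peaks of the whole lists. The chromosomes were chosen by their low density of KO peaks and the low share of their WT peaks that overlapped a KO peak, so these counts describe the choice and were not tested. The name given to the pair, few KO peaks, described chromosome 12 well, which had the lowest KO peak density of 20 chromosomes. Chromosome 14 was ninth from the lowest by KO peak density and second from the lowest by the share of WT peaks overlapping a KO peak.

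The limit at 5 Mb cut few peaks. The last WT peaks before it started at 3531344 on chromosome 12 and 4714932 on chromosome 14, and the first after it at 5062223 and 5056712. In the excluded starts of the chromosomes were 9 WT and 0 KO peaks on chromosome 12 and 22 WT and 5 KO peaks on chromosome 14, and none of these WT peaks overlapped a KO peak.

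iMEFs are immortalised mouse embryonic fibroblasts. In the cKO line, 4-hydroxytamoxifen (4OHT) leads to deletion of the floxed Setdb1 gene. WT cells carried the same conditional allele and received no treatment, and KO cells received 4OHT for 4 days and were harvested on day 7, so deletion, drug and time in culture cannot be told apart. Per the study's methods the cells were recloned, so both groups come from 1 clone. The series holds 7 samples, and the 2 peak lists used here come from 1 H3K9me3 ChIP-seq library of each group, made from native micrococcal nuclease chromatin with the antibody ab8898. The other 5 samples, the forebrain and input libraries, were not used here. Peak lists hold no expression values, so neither the fibroblast identity nor the loss of Setdb1 was checked. With 1 library per group no difference had a replicate check, and intervals are 95% Wilson intervals that cover counting error only.

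H3K9me3 is a histone mark of silent chromatin. Setdb1 is a methyltransferase that places it, mostly where the co-repressor Trim28 is brought to DNA by KRAB zinc finger proteins. Known targets are endogenous retroviruses, LINE-1 retrotransposons and the clustered genes of the zinc finger proteins themselves. Such proteins read DNA with tandem C2H2 fingers, each of which holds a zinc ion between 2 cysteines and 2 histidines.

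The following stretches show the kinds of sequence that carried the peaks of both chromosomes, as read from the mm9 reference. The first pair are tandem fingers of the WT-marked zinc finger arrays of chromosome 12, with the codons of the paired cysteines and histidines in capitals. The first lies between annotated genes at chr12:19505348-19505578 on the plus strand, and the second in Zfp125 at chr12:20906276-20906506 on the minus strand.
Chromosome 12 array with most fingers: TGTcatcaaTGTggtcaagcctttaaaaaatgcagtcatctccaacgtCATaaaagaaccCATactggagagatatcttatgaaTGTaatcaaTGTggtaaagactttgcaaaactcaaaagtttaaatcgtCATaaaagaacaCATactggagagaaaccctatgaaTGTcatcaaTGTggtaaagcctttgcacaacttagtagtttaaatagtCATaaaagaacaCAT
Zfp125: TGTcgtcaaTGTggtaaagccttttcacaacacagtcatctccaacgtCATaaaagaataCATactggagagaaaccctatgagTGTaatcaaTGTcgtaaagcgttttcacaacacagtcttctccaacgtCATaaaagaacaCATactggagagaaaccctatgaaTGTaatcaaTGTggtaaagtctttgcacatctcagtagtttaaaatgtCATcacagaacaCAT

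The WT peak with the highest score of chromosome 14, between genes at chr14:10258091-10258318, is shown for the high-copy sequences that made up the largest share of WT peaks. Its capitals mark the 31 bases found most often in the genome, 14901 times on both strands.
WT peak in high-copy sequence: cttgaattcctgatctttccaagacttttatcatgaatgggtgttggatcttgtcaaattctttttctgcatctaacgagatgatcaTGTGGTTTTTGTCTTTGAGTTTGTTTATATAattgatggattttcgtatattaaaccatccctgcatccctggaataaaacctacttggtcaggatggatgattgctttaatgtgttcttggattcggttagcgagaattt

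The WT peaks at Gata4 and Otx2, developmental regulators of chromosome 14, lay in single-copy sequence. The first below is in a Gata4 intron at chr14:63886727-63886834 and the second at an Otx2 promoter at chr14:49281953-49282048, with CG dinucleotides in capitals.
Gata4 WT peak: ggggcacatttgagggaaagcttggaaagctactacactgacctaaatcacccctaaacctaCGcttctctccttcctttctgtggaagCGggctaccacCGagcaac
Otx2 WT peak: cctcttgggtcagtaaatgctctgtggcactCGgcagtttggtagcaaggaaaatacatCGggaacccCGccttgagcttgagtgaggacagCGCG

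A WT peak that overlapped a KO peak in a Gm7247 intron at chr14:52117663-52117834 is shown because peaks of this gene were called in both lists. Capitals mark the bases that the WT and the KO peak shared.
Gm7247 WT peak: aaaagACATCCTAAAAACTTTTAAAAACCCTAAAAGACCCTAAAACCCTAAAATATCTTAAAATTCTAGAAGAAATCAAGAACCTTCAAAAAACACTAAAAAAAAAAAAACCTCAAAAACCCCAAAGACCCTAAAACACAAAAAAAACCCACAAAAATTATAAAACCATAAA

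The KO peaks with the highest scores held long runs of alternating T and A. They lay between genes at chr12:47286162-47286233 and chr14:91369361-91369510, and the few G and C bases are in capitals.
Chromosome 12 KO peak: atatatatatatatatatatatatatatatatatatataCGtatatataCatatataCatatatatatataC
Chromosome 14 KO peak: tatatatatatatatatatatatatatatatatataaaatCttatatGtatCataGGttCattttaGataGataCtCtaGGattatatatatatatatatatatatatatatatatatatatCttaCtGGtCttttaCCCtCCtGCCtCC

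WT H3K9me3 peaks were numerous on both chromosomes and nearly all were without a KO peak. Per sequenced Mb, chromosome 12 had 7.08 WT and 0.355 KO peaks and chromosome 14 had 8.35 WT and 1.02 KO peaks, against 9.03 WT and 1.49 KO peaks on the other chromosomes. For every 100 WT peaks there were 5.02 KO peaks on chromosome 12 (3.67 to 6.86), 12.2 on chromosome 14 (10.1 to 14.7) and 16.5 elsewhere (15.9 to 17.1). The neighbours by length, chromosomes 11 and 13, had 25.7 and 6.86. KO peaks covered 5.01 kb of chromosome 12 and 13.1 kb of chromosome 14, which was 2.74% and 6.95% of the length covered by WT peaks.

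WT peaks with 1 or more bases in common with a KO peak were called retained. Retained were 7 of 817 WT peaks on chromosome 12, or 0.857% (0.416 to 1.76), and 7 of 999 on chromosome 14, or 0.701% (0.340 to 1.44). Over the whole lists 2.42% of WT peaks were retained, over all chromosomes beyond 5 Mb 2.14%, and on the other chromosomes 2.26% (2.07 to 2.47). Seen from the KO list, 7 of 41 peaks of chromosome 12 overlapped a WT peak, or 17.1% (8.53 to 31.3), and 7 of 122 of chromosome 14, or 5.74% (2.81 to 11.4), against 16.1% over the whole list. The value of chromosome 14 was the lowest of the 20 chromosomes, while that of chromosome 12 was close to the whole list. All of these shares come from the contrast by which the chromosomes were picked.

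**Figure D1:**
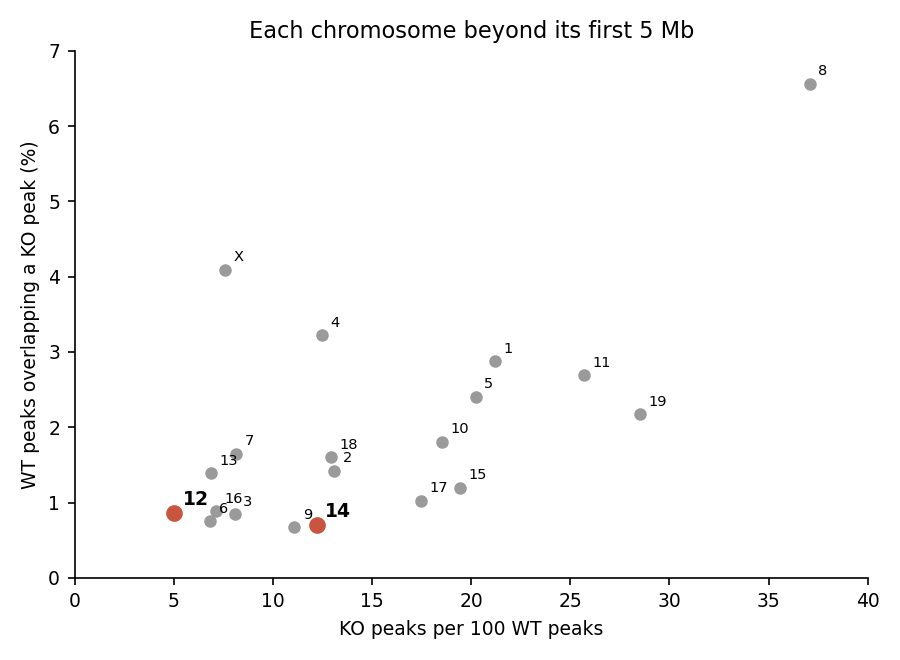
Each point is a chromosome beyond its first 5 Mb, with KO peaks per 100 WT peaks on the horizontal axis and the percentage of WT peaks overlapping a KO peak on the vertical axis. Chromosome 12 lies farthest left, at 5.02 and 0.857%, and chromosome 14 lies low on the vertical axis at 12.2 and 0.701%.

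Retention differed with the local background of the peak, that is, the coverage the peak caller expected at that place. Of WT peaks with a background of at most 3 fragments, 4 of 807 on chromosome 12 (0.496%) and 7 of 997 on chromosome 14 (0.702%) were retained, against 1.15% on the other chromosomes. Of those with more than 3 fragments, 3 of 10 on chromosome 12 and 0 of 2 on chromosome 14 were retained, against 238 of 776 elsewhere, or 30.7%. Such high-background peaks were 1.22% of the WT peaks of chromosome 12, 0.200% of those of chromosome 14 and 3.77% of the others. Their part in the low retention was not tested.

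KO peaks also lay farther from WT peaks than elsewhere. On chromosomes 12 and 14 together, 54 of 163 KO peaks had a WT peak within 10 kb, or 33.1% (26.4 to 40.7), against 52.4% on the other chromosomes (50.8 to 54.1). The 2 chromosomes were alike in this, at 15 of 41 and 39 of 122. Like the overlap, this distance comes from the contrast by which they were picked. Median gaps between neighbouring WT peaks were 41.7 kb on chromosome 12, 50.2 kb on chromosome 14 and 29.6 kb elsewhere, and the part of this spacing in the distances was not tested.

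In 1 Mb windows the WT peaks of the chromosomes were spread in different ways. Chromosome 12 had 117 windows with a median of 5 WT peaks, and its 5 densest held 184 peaks, 22.5% of the total. Chromosome 14 had 121 windows with a median of 8 WT peaks, and its 5 densest held 102, or 10.2%. KO peaks were in 30 windows of chromosome 12, with at most 4 in any of them, and in 63 windows of chromosome 14, with at most 14.

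**Figure D2:**
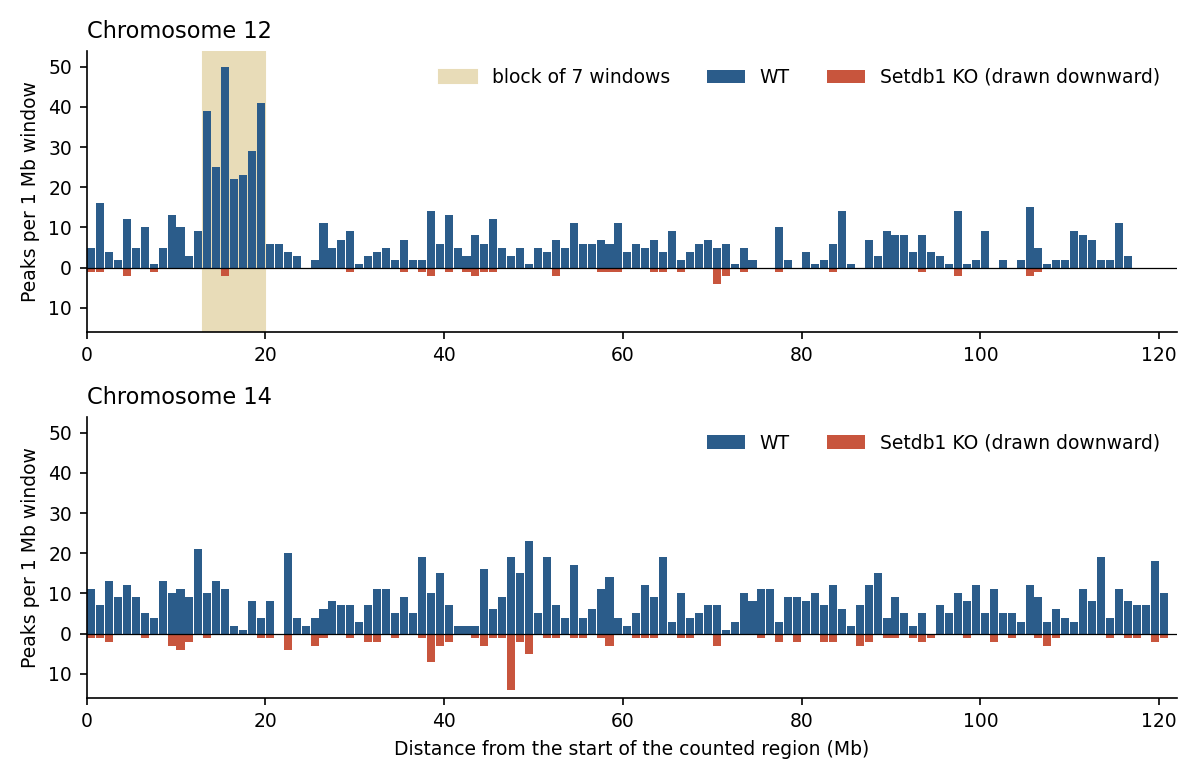
Bars give the number of WT peaks above and KO peaks below the line in each 1 Mb window along chromosomes 12 and 14, by distance in Mb from position 5000000, where counting began. WT peaks of chromosome 12 crowd into the shaded 7 windows with up to 50 each, and the KO peaks of chromosome 14 are highest at 14 in the Gm7247 window.

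The 5 densest WT windows of chromosome 12 lay within a few Mb of each other. They started at 20000001 with 50 WT peaks, at 24000001 with 41, at 18000001 with 39, at 23000001 with 29 and at 19000001 with 25. The first held 2 KO peaks and the others held 0. Genes reaching into them with most peaks, counted over the whole gene, were 3110053B16Rik with 9 WT peaks, Asap2 with 7, 9030624G23Rik with 5, 2410018L13Rik with 4, and Zfp125 and Gm4109 with 3 each. Asap2 starts in the window from 20000001, but all 7 of its WT peaks lay in the next, which held 22. Asap2 encodes an Arf GTPase-activating protein and Zfp125 a zinc finger protein, and most of the other annotated genes there were unnamed Rik and Gm models. Further genes with WT peaks were 5730507C01Rik, Gm11055 and Gm10476 with 2 each and RP23-32K16.2 with 1. No gene in the window from 19000001 overlapped a WT peak. KO peaks were most numerous elsewhere on the chromosome, with 4 in the window from 75000001, where Syt16, a synaptotagmin gene, had 3 KO and 2 WT peaks. A further 8 windows had 2 KO peaks each, the first of them those from 9000001 and 20000001.

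All 7 windows of chromosome 12 with at least 20 WT peaks formed a block at chr12:18000001-25000000, a limit drawn after the values were seen. The block held 229 WT peaks, 28.0% of the chromosome, at 34.2 per sequenced Mb against 5.41 in the rest. It had 2 KO peaks, so that there were 0.873 KO peaks for every 100 WT peaks inside and 6.63 outside. Retained was 1 of 229 WT peaks, or 0.437% (0.0771 to 2.43), against 6 of 588 outside. Peaks of the block were wide, with a median of 215 bp against 125 bp in the rest, and 16 of the 17 WT peaks of the chromosome wider than 1 kb were in it. Their pileup, the number of fragments at the summit, had a median of 10, the same as in the rest. Its highest value was 19, against 140 in the rest. The block has 54 annotated genes, of which 22 are protein-coding, and 49 of its 229 WT peaks overlapped a gene.

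The sequences under the block's peaks came in few copies. The copy number of a peak was taken as the median number of times its 31-base words occur in the genome. It had a median of 11 in the block and 1826 in the rest of chromosome 12. In the block, 43.2% of WT peaks had more than 1 and at most 10 copies, 47.6% more than 10 and at most 1000, 5.24% more than 1000, and 3.93% a single copy. Outside the block, 57.0% had more than 1000 copies and 53.1% had a LINE-1 reverse transcriptase peptide within 4 kb, against 4.80% in the block.

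Peaks that share 31-base words, directly or through a chain of other peaks, were put into groups. A group of 123 WT peaks and 0 KO peaks lay on chromosome 12 alone, and 116 of them were in the block, 50.7% of its WT peaks. With peaks within 5 kb joined, they formed 43 sites of 1 to 6 peaks, with a median length of 2116 bp. Sites followed each other at a median step of 128.9 kb, and 35 of 42 steps were between 75 and 170 kb. All 43 sites had at least 3 C2H2 zinc finger motifs within 3 kb, from 3 to 23 motifs per site. No KO peak lay within 3 kb of any site, but the whole block had only 2 KO peaks, so this zero says little about the sites.

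C2H2 finger motifs were therefore searched for in the genome. A motif was 2 cysteine codons with 2 codons between them, then 12 codons, then 2 histidine codons with 3 between them, with no stop codon, on either strand. At least 3 motifs at most 500 bp apart made an array. Chromosome 12 had 54 arrays beyond 5 Mb, and 49 of them were in the block or within 100 kb of it. Arrays of the block had a median of 14 motifs, from 3 to 22, and 566 of 626 steps between neighbouring motifs were exactly 84 bp, the length of 1 finger with its linker. Only 2 of the 49 overlapped an annotated exon and 36 lay in no annotated gene. The Zfp125 stretch printed above comes from an array of 9 motifs, and the stretch without a gene from one of 22.

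WT peaks sat on these arrays more often than on arrays elsewhere, but the search was begun because motifs lay at the block's WT peaks. The block itself was drawn by its number of WT peaks, so these shares are a description. On chromosome 12, 41 of 54 arrays overlapped a WT peak, or 75.9% (63.1 to 85.4), against 30.9% of arrays of all chromosomes. In the block it was 40 of 49, or 81.6% (68.6 to 90.0), and among the 5 remaining arrays of the chromosome only that of Zfp386 had a WT peak. Chromosome 13, which has many arrays too, had a WT peak on 44 of 100 (44.0%, 34.7 to 53.8), and chromosome 11 on 9 of 32. Among arrays of at least 8 motifs, 37 of 44 on chromosome 12 had a WT peak (84.1%, 70.6 to 92.1). It was 43 of 73 on chromosome 13 (58.9%, 47.45 to 69.47). On the other chromosomes together, chromosome 13 among them, it was 179 of 451 (39.7%). On chromosome 14 there were 2 arrays, in the zinc finger genes Zfp219 and Sall2, and neither had a WT peak. Reads that fitted several copies were placed at 1 of them by chance, so which copy of a near-identical array carried the mark is not resolved.

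KO peaks were absent from the arrays of both chromosomes. None of the 54 arrays of chromosome 12 overlapped a KO peak, which allows a share of up to 5.56%, against 2.26% of arrays of all chromosomes. At that low background the zero says little about these arrays. None of the 73 WT peaks on the arrays of chromosome 12 was retained, against 14 of 306 on the other chromosomes. Of all WT peaks beyond 5 Mb, 2.14% were retained, so this zero too says little. Low retention was also part of the choice of chromosome 12. These 73 peaks had a median width of 553 bp, reached 1600 bp, and had pileups from 9 to 19 with a median of 11. Of them 3 were in single-copy sequence. Nearby, 156 of the block's 229 WT peaks (68.1%) lay on or within 5 kb of an array, against 4.42% of WT peaks on the other chromosomes and 0 of 999 on chromosome 14. Such shares depend on the number of arrays at hand, which was 49 in or near the block and only 2 on chromosome 14.

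Not every array of the block was covered. Of the 9 without a WT peak, 5 followed each other between 22183664 and 22714248, a stretch of 530.6 kb with 2 WT and 0 KO peaks. Arrays with and without a WT peak had a similar median copy number, 10 and 11. Those with a peak had a median of 16 motifs and those without a median of 10.

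On chromosome 14 no window stood out as strongly. The densest started at 54000001 with 23 WT and 5 KO peaks, at 17000001 with 21 and 0, at 27000001 with 20 and 4, at 42000001 with 19 and 1, and at 52000001 with 19 and 14. The last pair are the first by position of 5 windows tied at 19 WT peaks. The first holds gene segments of the T-cell receptor alpha and delta chains and 116 annotated genes in all, but none of its genes overlapped a WT peak. In the second, Rarb, a retinoic acid receptor gene, had 7 WT peaks in its introns, and in the third Dnahc12, a dynein heavy chain gene, had 12. Gm7995 had 8 in the fourth and Gm7247 had 12 in the fifth, both unnamed protein-coding models. By the leading letters of gene names, Gm was most common in the named windows but that of Rarb. Gm marks unnamed models and is not a gene family. Mcpt and Adam genes led in the tied windows from 56000001 and 69000001. By KO peaks, the windows from 52000001 with 14, 43000001 with 7 and 54000001 with 5 led, and the second of these had 10 WT peaks and 44 Gm models among its 47 genes.

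Gm7247 had the most KO peaks of any gene of either chromosome. This 208.2 kb gene at chr14:51981431-52189657 had 12 WT and 13 KO peaks, and 3 of its WT peaks were retained, which is 3 of the 7 on chromosome 14. Its WT peaks had pileups from 9 to 14 and its KO peaks from 9 to 13. Single-copy sequence underlay 10 of the WT and 11 of the KO peaks, and the median GC content was 26.7% and 28.7%. WT peaks ran from 52009436 to 52140301 and KO peaks from 52008526 to 52160062 over much the same stretch. The printed stretch from this gene shows 1 of the shared sites, where the WT pileup was 14 and the KO pileup 11.

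Several clusters of single-copy WT peaks on chromosome 14 lay at regulators of development. With WT peaks at most 10 kb apart joined and at least 4 required, chromosome 14 had 22 clusters with 124 peaks, and 9 clusters were mostly single-copy, of which 5 were at Sox21, Otx2, Gata4 and Ebf2. Chromosome 12 had 32 clusters with 186 peaks, of which 24 touched a zinc finger array and 0 were mostly single-copy. The largest cluster of chromosome 14 was at Sox21, a transcription factor gene of the nervous system, with 11 WT peaks at chr14:118623826-118643807. They covered 5.56 kb and included a peak of 2766 bp with a pileup of 22, the widest of both chromosomes. Otx2, a homeobox gene of head and eye development, had 9 WT peaks at chr14:49271834-49290937 with pileups of 9 to 10.

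Gata4, which encodes a transcription factor of heart and endoderm, had 13 WT peaks in its introns at chr14:63858706-63888623. They lay between 1.91 and 31.8 kb downstream of the transcription start and had pileups of 9 to 12. Ebf2, a transcription factor gene of neural and fat cells, had 5 WT peaks around its start at chr14:67848214-67855181. All WT peaks of the 4 loci were single-copy and 0 were retained. Within 60 kb of the starts there were 0 KO peaks at Sox21 and 1 at each of the other 3, with pileups of 9 or 10. The KO peak nearest in position to a WT peak was in Gata4, at 63857728 to 63857916, less than 1 kb from the first WT peak.

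**Figure D3:**
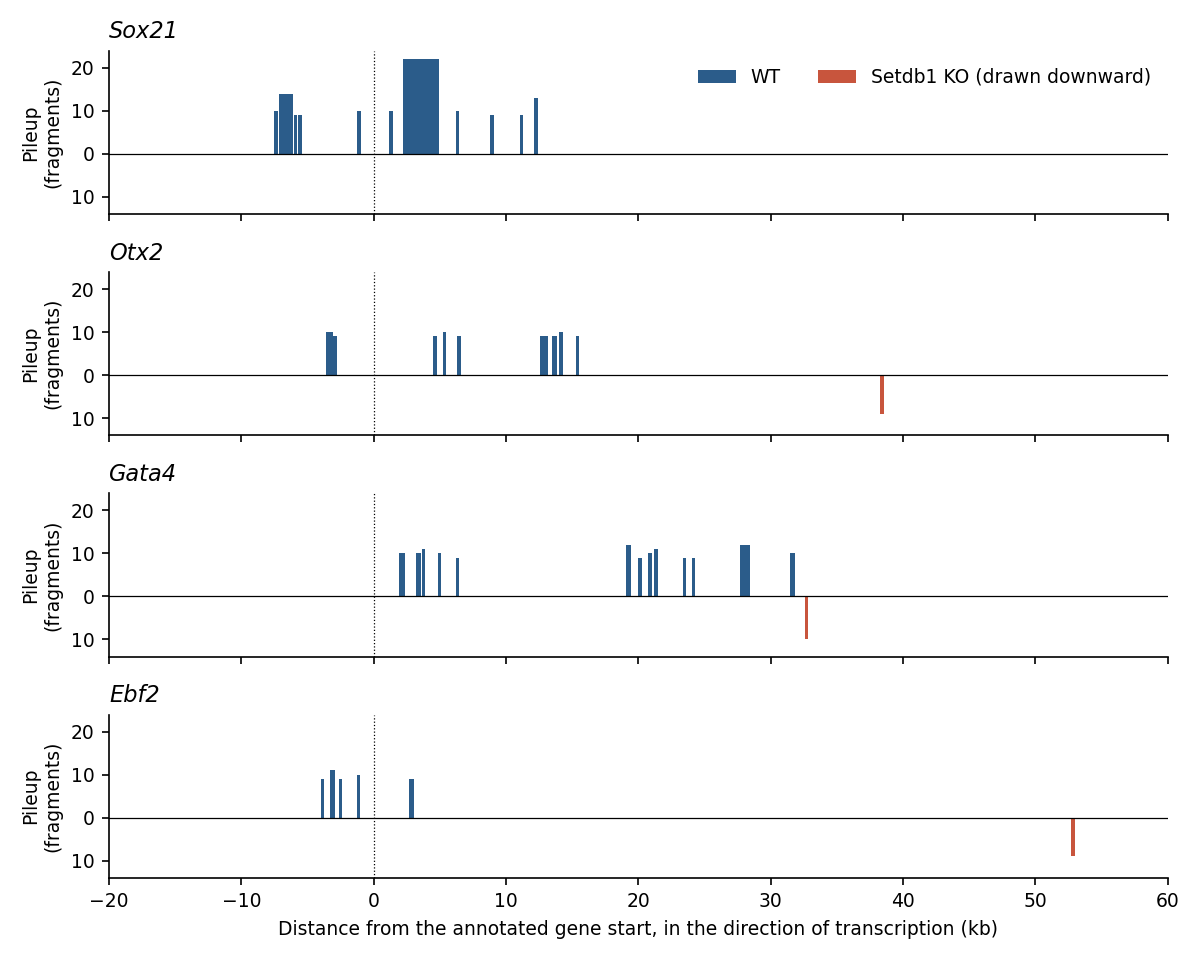
WT peaks (up) and KO peaks (down) at Sox21, Otx2, Gata4 and Ebf2 are drawn by distance from the gene's start in kb, with bar height giving the pileup in fragments and bars widened to a minimum so that narrow peaks can be seen. WT peaks crowd near each start with pileups from 9 to 22, and at most 1 KO peak lies in each panel.

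A list of developmental regulator genes, mostly of transcription factors, was written after these clusters had been seen. Within 20 kb of the gene, 12 of 16 listed genes of chromosome 14 had a WT peak, against 24% of annotated genes of all chromosomes beyond 5 Mb and 27.5% of those of chromosome 14. At least 4 WT peaks were near 6 of the 16, against 3.32% of genes of all chromosomes, namely Gata4 with 13, Sox21 with 11, Otx2 with 9, Nkx2-6 with 8, Rarb with 7 and Ebf2 with 5. Neighbouring genes such as Zic2 and Zic5 shared peaks, so that 60 distinct WT peaks gave 65 when summed over genes. KO peaks were near 4 of the 16, Gata4, Ebf2, Zic2 and Dach1, against 5.09% of genes of all chromosomes and 6.43% of those of chromosome 14. The reach was counted from the ends of the whole gene, and shares were not adjusted for gene length. Some listed genes are long, such as Dach1 with 382.9 kb and Rarb with 388 kb. Not all WT peaks near the listed genes were single-copy, with 2 of 7 at Rarb and 5 of 8 at Nkx2-6. On chromosome 12, 3 of 14 listed genes had a WT peak and none had at least 4, against 21.1% and 1.87% of all genes of that chromosome. Only Nkx2-1 of the 14 had a KO peak, against 1.09% of all genes of the chromosome. There Nkx2-1 and Six6, homeobox genes, had 3 WT peaks each and Pax9 had 1. Since the list followed the values, the counts are a description.

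Of all annotated genes, those on the 2 chromosomes overlapped WT peaks about as often as elsewhere. On chromosome 12, 70 of 1285 genes overlapped a WT peak, or 5.45%, and on chromosome 14 it was 92 of 1555, or 5.92%, against 6.45% of genes of all chromosomes. KO peaks overlapped 6 genes of chromosome 12, or 0.467%, and 28 of chromosome 14, or 1.80%, against 1.63% of all genes. By number of WT peaks, Gata4, Gpc5 and Fgf14 shared the lead with 13 each, before Dnahc12 and Gm7247 with 12. Gpc5, a glypican gene, had 13 WT and 0 KO peaks over 1432 kb, Fgf14, a gene of the fibroblast growth factor family, 13 and 2 over 699.2 kb, and Fhit 10 and 1 over 1612 kb. On chromosome 12 the pseudogene RP23-71I22.5 led with 10 WT and 0 KO peaks over 93.2 kb. Genes with KO peaks and no WT peak included Kcnh5 of chromosome 12 and Synpr and Dach1 of chromosome 14, with 2 KO peaks each.

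Gene families in clusters on these chromosomes were counted by fixed lists. No gene of the immunoglobulin heavy chain locus (41 genes), the Serpina protease inhibitors (27), the T-cell receptor segments (62), the Ear, Ang and Rnase ribonucleases (29), the Mcpt, Gzm, Cma and Ctsg proteases (15), the beta-defensins (5) or the Vmn pheromone receptors (4) overlapped a WT or a KO peak. Zeros allow a share of up to 4.84% for the T-cell receptor segments and 7.32% for the immunoglobulin genes. For the other families they allow from 10.3% to 75%. Only the limit of the T-cell receptor segments is below the 6.45% of all genes. Overlap was not adjusted for gene length, so that limit does not show that these segments were poor in peaks. Between genes of these loci there were peaks, with 20 WT and 0 KO peaks in the span of the immunoglobulin genes, 34 and 3 in that of the T-cell receptor segments, 64 and 23 in that of the ribonucleases and 5 and 7 in that of the Vmn genes, which lies in the Gm7247 stretch. Of the Olfr odorant receptor genes, 1 of 40 had a WT peak, at Olfr741. Zinc finger genes named Zfp had WT peaks in 3 of 6 cases on chromosome 12, with 3 in Zfp125, 2 in Zfp277 and 1 in Zfp386, and in 0 of 5 on chromosome 14. Of the protocadherins of chromosome 14, which encode cell adhesion proteins, 3 of 4 had WT peaks, with 6 in Pcdh9, 2 in Pcdh17 and 1 in Pcdh8, and Pcdh9 had 1 KO peak.

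In the imprinted Dlk1-Dio3 region of chromosome 12, where paternally and maternally expressed genes lie side by side, none of 7 genes overlapped a peak. The span from Begain to Dio3 held 17 WT and 3 KO peaks. Between Dlk1 and Meg3 there were 3 single-copy WT peaks, starting at 110766297, 110775779 and 110776793, and 0 KO peaks. Their pileups were 9, 9 and 10, at or just above the lowest value called.

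Most WT peaks lay between genes, 80.8% on chromosome 12 (77.9 to 83.3) and 72.8% on chromosome 14 (69.9 to 75.4), against 73.7% on the other chromosomes. Promoters, taken from 2 kb upstream to 0.5 kb downstream of a transcript start, held 2.45% of WT peaks on chromosome 12 and 3.30% on chromosome 14, against 3.86% elsewhere. Of the KO peaks of chromosome 14, 11 of 122 were at promoters, or 9.02% (5.11 to 15.4), against 5.61% of KO peaks elsewhere (4.89 to 6.44), and the intervals overlap. Chromosome 12 has 5.88 protein-coding genes per Mb and chromosome 14 has 7.61, against 8.89 elsewhere.

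High-copy sequence made up more of the WT peaks than elsewhere, and little of the KO peaks on chromosome 14. Sequences with more than 1000 copies underlay 42.5% of WT peaks on chromosome 12 (39.1 to 45.9) and 41.4% on chromosome 14, against 35.5% on the other chromosomes. Among KO peaks the shares were 10 of 41, or 24.4% (13.8 to 39.3), and 8.20% of 122, against 7.41%. Single-copy sequence underlay 13% of WT and 53.7% of KO peaks on chromosome 12 and 28.8% of WT and 73.8% of KO peaks on chromosome 14. The most common shared sequence, that of the high-copy peak printed above, joined 858 WT and 16 KO peaks, and 75.9% of the WT peaks had the LINE-1 peptide within 4 kb. A further 58 WT peaks and 1 KO peak shared a sequence of which 89.7% of WT peaks lay between direct repeats with a median length of 339 bp, the layout of a retrovirus-like element with its terminal repeats.

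KO peaks seldom had high pileups, and a small share of them was very rich in A and T. Pileups of KO peaks without a WT peak reached 15 in 7 of 149 cases, against 359 of 2914 on the other chromosomes. Among the latter it was 3 of 221 on chromosome 11 and 3 of 57 on chromosome 13. Few high pileups were thus not particular to chromosomes 12 and 14. A GC content below 20% was found in 9 of 163 KO peaks (5.52%, 2.93 to 10.2) and 1 of 1816 WT peaks, against 2.62% of KO peaks elsewhere (2.13 to 3.21), and the intervals of the KO shares overlap. At least 10 repeats of TA in a row were in 7 of 163 KO peaks (4.29%, 2.1 to 8.60) and 0 of 1816 WT peaks, against 1.91% of KO peaks elsewhere (1.5 to 2.43), again with overlapping intervals. The KO peaks with the highest score, printed above, were of this kind. That of chromosome 12 at 47286162 had 6.94% GC, a pileup of 20 and a score of 12.6, the score being −log10 of the peak's q-value. That of chromosome 14 at 91369361 had 18% GC, a pileup of 21 and a score of 15.9. The next on each chromosome were at 48934952, a retained peak, and 12222752 on chromosome 12, and at 99095279 and, in Hs6st3, a heparan sulfate sulfotransferase gene, 119631303 on chromosome 14.

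Most of the WT peaks with the highest scores overlapped no KO peak. On chromosome 12 they started at 98299665 with a score of 20.9 and a pileup of 40, at 48934944 with 17.4 and 82, and at 6783902 with 16.0 and 23. On chromosome 14 they started at 10258091 with a score of 18.4 and a pileup of 24, at 102877103 with 17.1 and 23, and at 79186610 with 16.5 and 27. Only the peak at 48934944 was retained. Those at 6783902, 10258091, 102877103 and 79186610 were in sequences of more than 1000 copies, and the other pair were single-copy.

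The 14 retained pairs were of several kinds. On chromosome 12, 3 had a high local background in both lists. The pair at 48934944 had pileups of 82 in WT and 73 in KO on backgrounds of 21.7 and 23.1. The pair at 68160174 in a Mdga2 intron had 135 and 123 on 68.4 and 74.1, and that at 75904854 had 140 and 128 on 78.2 and 79.7. Their fold enrichments in KO, 3.08, 1.65 and 1.60, were below those in WT, 3.66, 1.96 and 1.78. Mdga2 encodes a cell surface protein of neurons.

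The other pairs of chromosome 12 had pileups of 9 to 13 in both lists. They started at 5839611 in sequence of 4740 copies with 11 in WT and 11 in KO, at 20238458 in the block with 13 and 12, at 57136990 with 13 and 10, and at 88842837 in BB287469 with 9 and 9. The last shared only 7 bp. The pair in the block had 1 copy and lay between direct repeats of 614 bp, not on a zinc finger array.

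On chromosome 14, 3 pairs were in Gm7247, at 52010060 with pileups of 10 in WT and 9 in KO, at 52117663 with 14 and 11, and at 52129327 with 11 and 11. The pair at 54921394, 18.8 kb from Olfr49, had 19 and 10, and its WT peak of 1953 bp met a KO peak of 94 bp. The pair at 59154346 had 16 and 10, that at 71793021 had 14 and 9, and that at 124819412 in Fgf14 had 9 and 10. In all, the KO pileup was lower in 5, equal in 2 and higher in 0 pairs of chromosome 12, and lower in 5, equal in 1 and higher in 1 of chromosome 14. Since the libraries' exact read totals are not in the lists, pileups were not brought to a common scale. The bases shared were 1.74 kb on chromosome 12 and 1.00 kb on chromosome 14, 0.951% and 0.530% of the bases under WT peaks.

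**Figure D4:**
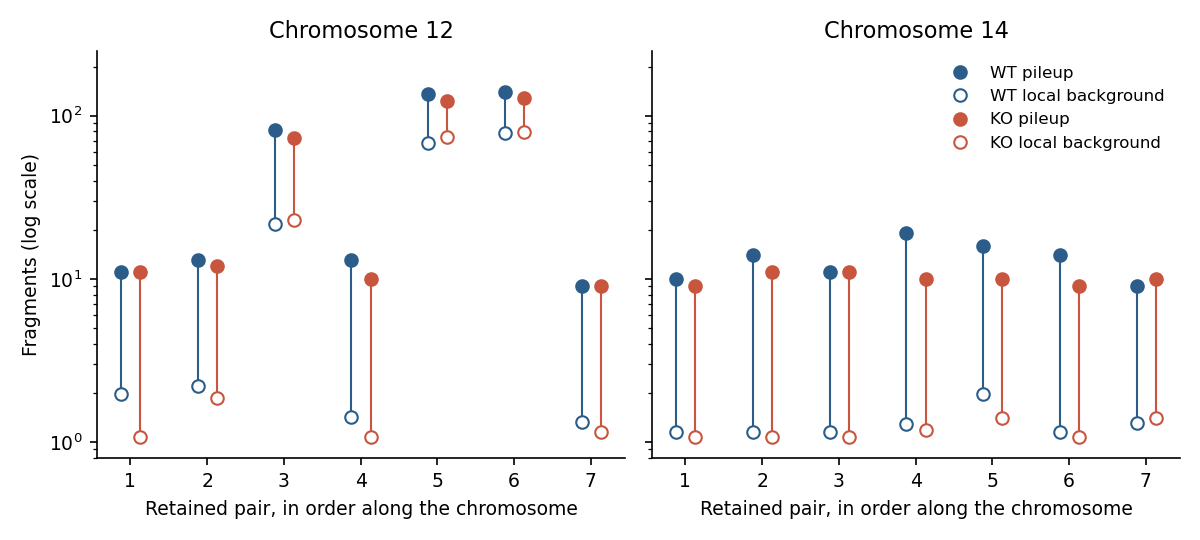
Filled points give the pileup and open points the local background in fragments, on a log axis, of the WT and the KO peak of each of the 7 retained pairs of chromosome 12 and the 7 of chromosome 14, in order along the chromosome. On chromosome 12, 3 pairs stand at pileups of 73 to 140 on high backgrounds, and the pileups of the other pairs of both chromosomes lie between 9 and 19.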

How the data were processed

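Native chromatin was digested with micrococcal nuclease, and single-end reads were mapped by the authors to mm9 with Bowtie2 2.2.3 as listed in the submitters' processing notes. Reads with several hits were placed at 1 of them at random, and duplicates were removed with Picard. The file headers name MACS2 2.1.0.20140616 as the peak caller, and the options used are not given in the sources used here. The deposited pileup is a coverage signal, the number of fragments at the summit, with a lowest value of 9 in both lists. The authors' fold column is a ratio, pileup over local background with 1 added to each, from which the background was recovered as (pileup + 1) / fold − 1. The deposited −log10 p and −log10 q belong to single peaks, and the latter is called the score. Read totals per library are not in the lists. The study's methods give only an approximate range of reads for the iMEF ChIP-seq, so the exact depth of each library is not known. Starts were read as counted from 1, which the lists do not state, so each carries an uncertainty of 1 bp.

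All overlaps, windows, densities and contexts were computed from the lists, on the NCBIM37 (mm9) genome and the GENCODE M1 annotation, with 37273 genes and 95495 transcripts. A LINE-1 was marked by a reverse transcriptase peptide of 10 residues in the translated genome. Direct repeats were copies of 200 to 1500 bp lying 3 to 9.5 kb apart. Peaks sharing at least 10 of their 31-base words were linked, and chains of linked peaks formed a group. Named were, per chromosome, the 3 WT and 3 KO peaks with the highest scores and every retained peak. The 5 windows with most WT and the 3 with most KO peaks were named as well. For these windows, up to 3 leading genes and the most common leading letters of gene names were taken. Members with peaks of the gene families listed were also named. The chromosomes, members and lists were chosen with earlier results of these data known, and the block, the zinc finger arrays, the clusters and the list of developmental genes, with the genes and loci given for them and the leading genes by number, were chosen after their values were seen.

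Alternatives covered the peak threshold, the overlap counted as shared, the windows' offset and the promoter width. With 1 library per group no test was run. Overlap code was tested on 1000 simulated peaks, where 100 of 100 planted overlaps were recovered with 0 false, and the array search on 2 planted arrays, both recovered. The tools were samtools 1.23.1, statsmodels 0.14.6, pysam 0.24.0, numba 0.67.0, scipy 1.17.1, pandas 2.3.3, numpy 2.4.6 and matplotlib 3.10.9 under Python 3.11.15.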

Additional observations from a re-analysis of the deposited data

How the results depend on the processing

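No paired analysis was possible because the comparison rests on 1 library of either kind. Of 56 alternative values for 15 results, 35 stayed within their interval or within 1.5 times the main count and 21 moved. A score limit at the median of the WT list, 3.04, applied to both lists, kept 407 WT and 18 KO peaks on chromosome 12 and 438 and 32 on chromosome 14, with 7.31 KO peaks per 100 WT peaks on the latter. The densest windows then held 24 and 13 WT peaks, on chromosome 14 from 52000001, and 63% of chromosome 12 zinc finger arrays had a WT peak, an alternative added after seeing the data. With a pileup of at least 15, 35 WT peaks were left on each chromosome with 6 and 4 KO peaks. On chromosome 12 this gave 17.1 KO peaks per 100 WT peaks, 8.57% of WT peaks retained and 50% of KO peaks overlapping, and on chromosome 14 0% and 0%. With peaks within 1 kb counted as shared, chromosome 14 had 1.80% of WT peaks retained and 16.4% of KO peaks shared. Promoters from 5 kb upstream held 5.88% and 8.21% of WT peaks. Windows shifted by 0.5 Mb had 40 and 21 WT peaks at most. The fewer peaks above a threshold follow from the threshold itself, and the cause of the other shifts was not tested. Most peaks had pileups at or just above the lowest called, and the exact depth of each library is not known.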
